A study of Mus musculus with 8 samples.

Results

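The serpins are a family of protease inhibitors, and 46 autosomal genes of the family, measured by 138 probes, were followed here through DNA copy number in mouse livers. The members were all autosomal genes whose name on the array begins with Serpin, out of 24567 named autosomal genes and 220065 autosomal probes. RefSeq (assembly GRCm38.p6) lists all 46 names on the same chromosomes and also holds 22 autosomal Serpin symbols with no probe under that name on the array. Serpina3h is a pseudogene in RefSeq. Of the members, 35 had at least 2 probes and 11 had 1 probe, and Serpini1 had the most, 12. A single Serpin probe on the X chromosome was left out by the rule.

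The samples were 6 hepatocellular carcinomas from mice carrying a FEAT transgene, 1 normal liver from a FEAT transgenic mouse and 1 normal liver from a wild-type mouse. All 8 donors were male C57BL/6 mice, and the reference hybridised with each of them was liver DNA from a healthy wild-type male of the same strain at 6 months. Tumours 1 to 6 came from mice of 16, 21, 20, 18.5, 22 and 12 months. The donor of the normal FEAT liver was 13 months old and that of the wild-type liver 6 months. What drives the transgene, and how many founder lines were used, is not stated by the labels. The donors of tumours 1 to 5 exceeded both non-tumour donors in age, and tumour and age cannot be told apart. Each non-tumour group is a single array, and all arrays share one kind of reference DNA.

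Serpins inhibit mostly serine proteases by a suicide mechanism: the protease cuts an exposed loop of the serpin and is trapped on it. The liver secretes many of them into plasma, among them the antitrypsins of clade A, antithrombin and the C1 inhibitor, where they hold clotting, fibrinolysis, complement and neutrophil proteases in check. Clade B members act mainly inside cells. Many mouse serpins lie side by side in arrays of related genes that arose by duplication, so that a change in copy number of the chromosome reaches many of them together.

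The sequences of 9 probes are shown, most of them because their values stood far from 0 and the last 2 because they resemble each other. Each is the array's oligonucleotide as given in the scanner output, 5′ to 3′, with G and C in capitals, since base content moves with the values of the array. Positions are as annotated by the array maker, on a genome build that the labels and file headers do not state, and the strand is not given either. Whether a probe lies in an exon or an intron was not determined. The first 3 probes had the highest means of all serpin probes over the 8 arrays, the Serpinc1 probe reached the highest single value, and the next 3 had the lowest means. The last 2 are the pair with the longest run of identical bases between genes.

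Serpinh1, chr7:95376203-95376262: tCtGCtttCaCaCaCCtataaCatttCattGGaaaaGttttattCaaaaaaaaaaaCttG
Serpina12, chr12:101527165-101527224: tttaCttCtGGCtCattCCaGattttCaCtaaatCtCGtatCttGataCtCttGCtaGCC
Serpinb1c, chr13:32261221-32261280: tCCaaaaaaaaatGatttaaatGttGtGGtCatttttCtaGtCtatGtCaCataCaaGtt
Serpinc1, chr1:160952407-160952466: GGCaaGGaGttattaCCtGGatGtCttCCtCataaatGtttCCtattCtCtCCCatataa
Serpinb6b, chr13:32336762-32336821: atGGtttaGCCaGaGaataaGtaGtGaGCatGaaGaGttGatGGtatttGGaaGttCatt
Serpina1f, chr12:101188038-101188097: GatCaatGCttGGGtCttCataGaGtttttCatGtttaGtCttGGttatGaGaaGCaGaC
Serpinb13, chr1:106882084-106882143: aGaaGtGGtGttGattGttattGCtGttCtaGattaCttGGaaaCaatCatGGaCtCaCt
Serpinb1a, chr13:32214308-32214367: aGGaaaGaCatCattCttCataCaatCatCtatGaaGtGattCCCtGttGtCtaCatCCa
Serpinb1c, chr13:32254593-32254652: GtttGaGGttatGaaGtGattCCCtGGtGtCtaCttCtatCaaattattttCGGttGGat

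Over 2465 pairs of serpin probes on the same chromosome, compared on both strands, the longest run of identical bases between different genes was 17, in the Serpinb1a and Serpinb1c probes printed last. The next longest was 12. The 2465 pairs include pairs within a gene and the probes of BC021325 and BC057984, antitrypsin genes outside the name rule. Of the 138 probes, 114 were 60 bases long. The median GC content of the serpin probes was 36.7%, the same as over all autosomal probes. Whether DNA of a related serpin binds a probe was not tested.

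All values below are log2 ratios of test over reference DNA, with each array's autosomal median set to 0, so that 0 is the centre and a gain is positive. The flanking level of a gene is the median of 200 probes on each side, starting 1 Mb beyond its ends. A value with that level subtracted shows how a gene stands against its own stretch of chromosome. The noise between neighbouring probes ranged from an SD of 0.22 in tumour 5 and the wild-type liver to 0.49 in tumour 4. The precision of every comparison is limited by how few arrays there are.

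The 46 genes lie at 10 loci on 8 chromosomes, and 37 of them in 3 clusters. The Serpina cluster on chromosome 12 holds 15 members within 0.794 Mb (positions 101110781 to 101904908). One Serpinb cluster holds 10 members within 0.743 Mb on chromosome 1, and the other holds 12 members within 1.14 Mb on chromosome 13. The pair Serpinf1 and Serpinf2 lies on chromosome 11, and Serpini1 and Serpini2 on chromosome 3. Serpinc1 and Serpine2 lie apart on chromosome 1, Serping1 on chromosome 2 and Serpinh1 on chromosome 7.

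The chromosome around serpin loci was displaced in tumours 1, 4 and 5. A gene was counted as gained or lost where its flanking level was at or beyond 0.1 in either direction, with no test. Member counts are over all 46 members, genes with 1 probe included, while the shares are of genes with at least 2 probes. In tumour 1, 15 members lay on lost and 1 on gained flanks, against 14.4% and 4.52% of the 16520 autosomal genes with at least 2 probes. In tumour 4, 5 members lay on lost and 12 on gained flanks, against 16.9% and 14% of genes. With centring on the mode the split in tumour 4 became 0 lost and 15 gained, against 1.48% and 33.2% of genes. In tumour 1 it became 15 lost and 9 gained, against 14.4% and 6.67%. In tumour 5, 28 members lay on lost and 14 on gained flanks, against 36.7% and 23.2%. With centring on the mode the tumour 5 counts became 23 lost and 15 gained, against 28.6% and 25% of genes. Tumours 2, 3 and 6, the normal FEAT liver and the wild-type liver had 0 members on such flanks. With centring on the mode, however, tumour 3 had 27 members on gained flanks, against 32.5% of all genes, tumour 2 had 2, against 2.69%, and the normal FEAT liver 2, against 0.908%. Over all genes, 2.16% were lost and 0.412% gained in tumour 2, and 0.285% and 0.0303% in tumour 6. In tumour 3 the shares were 0% and 0.0303%, in the normal FEAT liver 0.0121% and 0%, and in the wild-type liver 0% and 0%. Because members of a cluster share their flank, these are counts of few loci and not of independent genes.

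**Figure D1:**
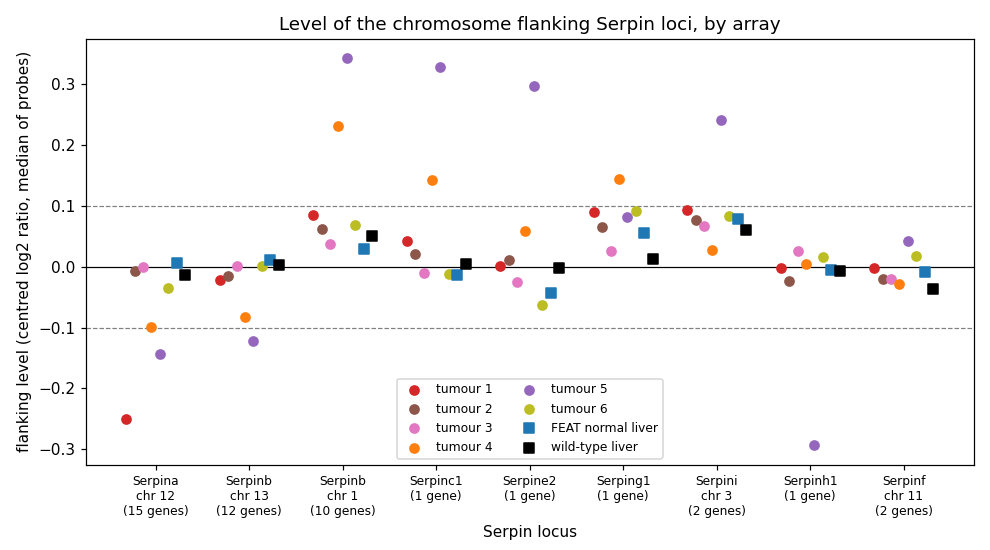
The vertical axis is the median centred log2 ratio of the flanking chromosome at the loci on the horizontal axis; circles are tumours, squares the non-tumour livers and dashed lines the threshold of 0.1. Tumour 5 lies near 0.3 at the loci of chromosome 1 and at -0.29 beside Serpinh1, and tumour 1 is lowest at the Serpina cluster, at -0.25.

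The Serpina cluster codes for the main plasma protease inhibitors of the liver. It includes Serpina1e, one of the mouse antitrypsin genes, Serpina3 genes related to antichymotrypsin, and Serpina10, which inhibits clotting factor Xa together with protein Z. It also holds Serpina6, the corticosteroid carrier of plasma, and Serpina12, known as vaspin. Around the cluster the flanking level was -0.25 in tumour 1, -0.01 in tumour 2, -0.00085 in tumour 3, -0.10 in tumour 4, -0.14 in tumour 5 and -0.03 in tumour 6. It was 0.01 in the normal FEAT liver and -0.01 for the wild-type liver. Tumours 1, 4 and 5 were thus the lowest, and tumours 2, 3 and 6 lay between -0.03 and the non-tumour levels. With a GC correction tumour 1 stayed at -0.25 and tumour 5 at -0.15, and with centring on the mode they were at -0.23 and -0.12, but tumour 4 moved to -0.01 on the mode. In tumour 1 the median of the 15 gene levels was -0.40, and 11 of the 15 lay below both non-tumour livers, where 30.1% of all named autosomal genes did. In tumour 5 the median was -0.22 and 7 of 15 lay below both, against 37.3% of genes. The count below both was also 7 of 15 in tumour 4, against 37.7% of genes, 7 of 15 in tumour 6, against 35.3%, and 6 of 15 in tumour 3, against 21.9%. In tumour 2 it was 2 of 15, against 27.1%. The count in tumour 5 was therefore like those of tumours 3 and 6, whose flank was near 0. It was above that of tumour 2, whose flank was also near 0. In tumours 1 and 5, 0 of the 15 lay above both non-tumour livers, where 32.3% and 34% of all genes did.

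The flanks of the clade B clusters were displaced in opposite directions in tumour 5. Clade B serpins include Serpinb1a, an inhibitor of neutrophil serine proteases, Serpinb9, which inhibits granzyme B, Serpinb2, an inhibitor of plasminogen activators, and Serpinb5, called maspin. Around the cluster on chromosome 1 the flanking level was 0.34 in tumour 5 and 0.23 in tumour 4. It was 0.09, 0.06, 0.04 and 0.07 in tumours 1, 2, 3 and 6, 0.03 in the normal FEAT liver and 0.05 for the wild-type liver. Tumours 4 and 5 stood above the other 6 arrays, with values of 0.19 and 0.33 after a GC correction and 0.32 and 0.37 with centring on the mode. In tumour 5 all 10 genes of this cluster lay above both non-tumour livers, against 34% of all genes, with levels from 0.18 to 0.53. In tumour 4, 6 of the 10 did, against 37% of genes.

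Around the clade B cluster on chromosome 13 the flanking level was -0.12 in tumour 5 and -0.08 in tumour 4. The other 4 tumours lay between -0.02 and 0.0019, the normal FEAT liver at 0.01 and the wild-type liver at 0.0031. With centring on the mode tumour 5 was at -0.099, inside the threshold at the level of the whole cluster, and tumour 4 at 0.0051. In tumour 5 the gene levels of this cluster ran from -0.45 to 0.15, with a median of -0.24. Of its 12 genes, 6 lay below and 0 above both non-tumour livers, against 37.3% and 34% of all genes. Tumour 4 had 7 of 12 below, against 37.7%, and tumour 6 had 5 of 12, against 35.3%. Tumours 1, 2 and 3 had 2, 1 and 1 of 12 below, against 30.1%, 27.1% and 21.9%. None of these tumours' flanks was counted as lost there. The distance between the flanks of the chromosome 1 and chromosome 13 clusters was therefore widest in tumour 5, where one lay at 0.34 and the other at -0.12. No test was made, since each tumour is 1 array.

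**Figure D2:**
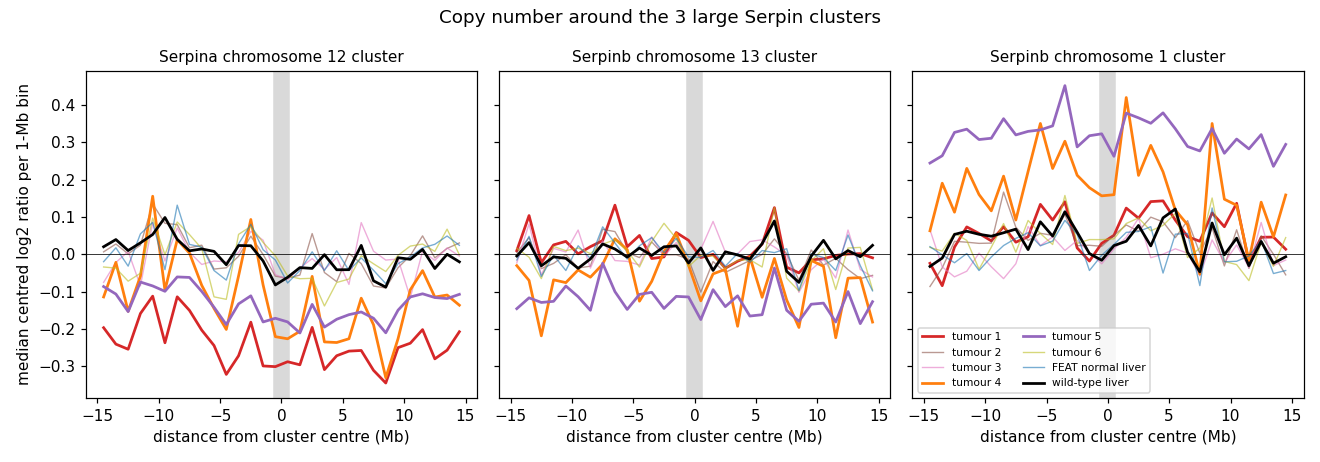
Each line is the median centred log2 ratio of probes in 1-Mb bins (vertical axis) by distance from the centre of a cluster in Mb (horizontal axis) on 1 array; the grey band marks the place of the cluster. Tumour 1 around the Serpina cluster and tumour 5 around the Serpinb chromosome 1 cluster stay on one side of 0 over the whole range drawn.

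The flanks of loci outside the clusters were displaced in some tumours, and the genes' own levels did not always lie on the same side. Serpinc1 codes for antithrombin, the main plasma inhibitor of thrombin, and its flank stood at 0.33 in tumour 5 and 0.14 in tumour 4, with the other 6 arrays between -0.01 and 0.04. Serpine2, which codes for protease nexin 1, had a flank of 0.30 in tumour 5 and of -0.06 to 0.06 elsewhere. Serpinh1 codes for the collagen chaperone HSP47, and its flank was -0.29 in tumour 5 and between -0.02 and 0.03 in the other 7 arrays. The mean of its own probes in tumour 5 was 0.26, on the other side of 0 from the flank. That mean was above 0 in all 8 arrays, from 0.10 in the normal FEAT liver to 0.86 in tumour 2, with the wild-type liver at 0.37.

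The flank of Serping1, the gene of the C1 inhibitor, which restrains complement and kallikrein, was at 0.14 in tumour 4, but only 0.03 there after a GC correction, which ends its count as gained. Serpini1, which codes for neuroserpin, and its neighbour Serpini2 had a flank of 0.24 in tumour 5, 0.23 after a GC correction, and between 0.03 and 0.09 in the other 7 arrays. Around Serpinf1, the gene of the pigment epithelium-derived factor, and Serpinf2, that of antiplasmin, the flank stayed between -0.04 and 0.04 in all 8 arrays. The mean of the probes of this pair ran from -0.19 in tumour 5 to 0.30 in tumour 3.

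After flank subtraction, serpin probes of the Serpina cluster and the chromosome 1 Serpinb cluster averaged slightly below their surroundings on all 8 arrays. The mean of the Serpina probes was below the flank by -0.09 ± 0.04 (SD, n = 6) in tumours, and by -0.06 in the normal FEAT liver and -0.13 for the wild-type liver. The Serpinb cluster on chromosome 1 stood at -0.06 ± 0.03 (SD, n = 6) in tumours, -0.06 in the normal FEAT liver and -0.05 for the wild-type liver. The Serpinb cluster on chromosome 13 stood at -0.02 ± 0.05 (SD, n = 6) in tumours, -0.06 in the normal FEAT liver and -0.04 for the wild-type liver. In all 3 clusters both non-tumour values lay within the range of the tumours. Over every probe in the span, serpin or not, the tumour mean against the flank was -0.05 for the Serpina cluster. It was -0.03 for the Serpinb cluster on chromosome 1 and 0.03 for that on chromosome 13.

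Tumours were then compared with the 2 non-tumour livers with limma, over all 16520 autosomal genes with at least 2 probes. It fits a linear model to each gene and draws the gene's spread toward a value common to all genes. On the centred ratios 0 of 35 serpin genes passed an adjusted p of 0.05 (Benjamini-Hochberg), where 0% of all genes did. On the flank-subtracted ratios it was again 0 of 35, against 0% of all genes. At an unadjusted p under 0.05, limma gave 1 serpin gene in each comparison, Serpinb1c, or 2.86% of the 35. Over all genes it was 393 and 499, or 2.38% and 3.02%. The smallest adjusted p of a serpin gene was 1.00 in both. After flank subtraction 16 of the 35 genes were higher in tumours and 19 lower, with a median difference of -0.0082, against 0.0097 over all genes tested. The differences ran from -0.15 to 0.27, and the median half-width of the 95% confidence interval was 0.23, so that differences well under that size were not detectable. That interval is not adjusted for the number of genes tested, and passing the adjusted p takes a larger difference. The lack of passing genes therefore does not exclude differences of that size.

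The genes with the highest differences were Serpinh1, Serpinb1c, Serpina3h, Serpina3k and Serpinc1. Serpinh1 stood above its flank in all 8 arrays, by 0.41, 0.89, 0.69, 0.30, 0.55 and 0.23 in tumours 1 to 6, 0.11 in the normal FEAT liver and 0.37 for the wild-type liver. The wild-type value lay among the tumours, and the normal FEAT liver had the lowest value. The difference was 0.27 with an interval from -0.10 to 0.64 (limma, adjusted p = 1.00). Serpinh1 rests on 2 probes, and the one printed first ranged from -0.04 in the normal FEAT liver to 1.33 in tumour 2.

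Serpinb1c, a relative of the gene of the neutrophil protease inhibitor Serpinb1a, stood at 0.29, 0.22, 0.45, 0.39, 0.21 and 0.30 in tumours 1 to 6, at 0.14 in the normal FEAT liver and -0.04 for the wild-type liver. All 6 tumours lay above both non-tumour livers, but the gene was named for its high difference. The share of all genes with such a separation was not counted. The wild-type liver was the lowest of the 8, and the tumour mean of 0.31 stood nearer to the normal FEAT liver than to it. The size of the difference therefore depends on which non-tumour liver is used. The difference of 0.26 had an interval from 0.08 to 0.44 and did not pass after adjustment (limma, adjusted p = 1.00). Of its 4 probes, the one at 32254593 stood between -0.19 and 0.25, and that at 32261221 at 0.69, 0.47, 0.62, 0.97, 0.38 and 0.97 in tumours 1 to 6. The latter was at 0.20 in the normal FEAT liver and -0.23 for the wild-type liver, so that the probes of the gene differed among themselves.

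Antithrombin's gene Serpinc1 stood at -0.08, -0.04, -0.16, 0.05, 0.20 and 0.29 against its flank in tumours 1 to 6, at -0.14 in the normal FEAT liver and -0.05 for the wild-type liver. Tumours and non-tumour livers overlapped. Its probe at 160952407 reached 1.53 in tumour 6 and 1.03 in tumour 4, while the other two probes lay at or below 0.10 in every array. BC019447, described on the array as the same antithrombin gene and outside the rule by its name, has 1 probe beside it, at 160947076. It stood at -0.48, -0.17, 0.03, -0.77, -0.14 and -0.43 in tumours 1 to 6, -0.41 in the normal FEAT liver and -0.08 for the wild-type liver, so that in tumour 6, where Serpinc1 was highest, it lay below 0. Serpina3h and Serpina3k differed by 0.19 and 0.14, with intervals from -0.15 to 0.52 and from -0.17 to 0.46. Without the wild-type liver these differences were 0.05 and 0.22, and without the normal FEAT liver 0.32 and 0.07.

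At the other end stood Serpinb2, Serpinb9d, Serpinb12, Serpina11 and Serpina6, with differences of -0.15, -0.14, -0.14, -0.14 and -0.13. Serpinb2 was above its flank in all 8 arrays, from 0.15 to 0.44, with tumours at a mean of 0.24 ± 0.11 (SD, n = 6) and non-tumour livers at 0.44 and 0.35. Serpina6 read -0.10, 0.06, -0.01, -0.28, 0.11 and -0.07 in tumours 1 to 6, and at 0.17 and -0.01 in the normal FEAT liver and the wild-type liver. Its 2 probes stood on opposite sides of 0 in all 8 arrays, with means of -0.34 and 0.30.

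**Figure D3:**
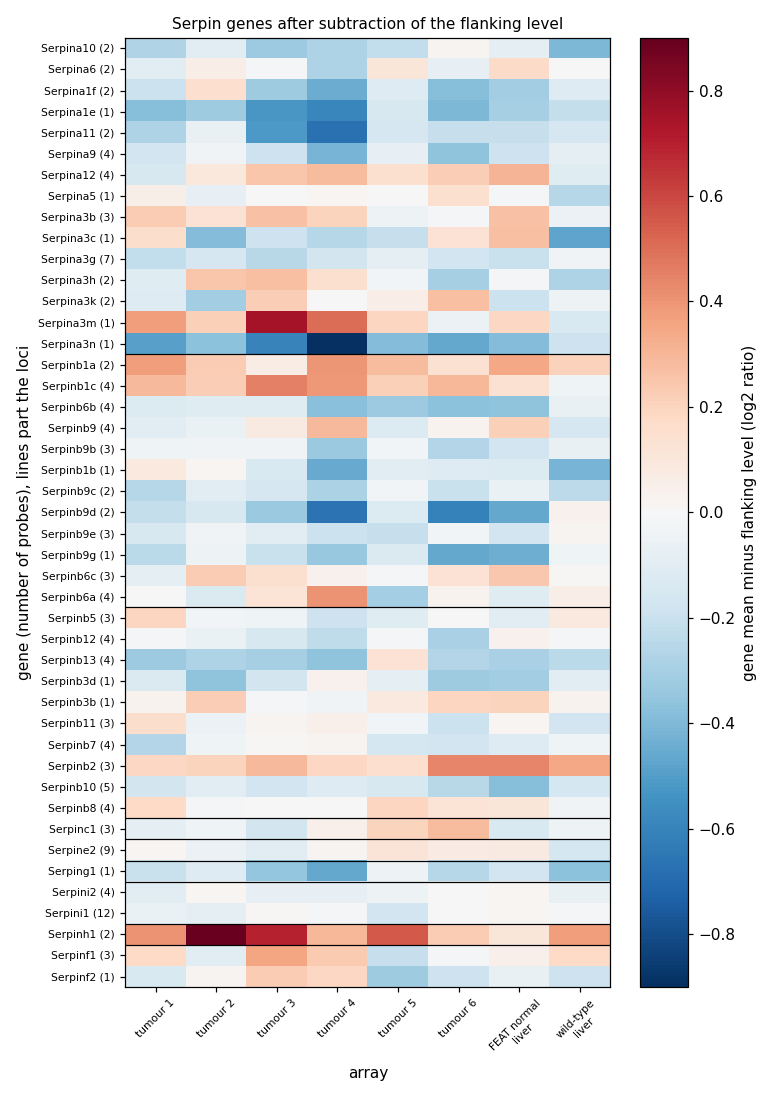
The rows are serpin genes with their number of probes, the columns arrays, and the colour is the gene's mean log2 ratio minus its flanking level; lines part the loci. Serpinh1 and Serpinb2 are above 0 and Serpina3n and Serpina11 below 0 in all 8 arrays.

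Among the plasma inhibitors with 1 probe, which the test did not cover, Serpina1e lay below its flank in all 8 arrays, from -0.59 in tumour 4 to -0.14 in tumour 5. Serpina3n, an antichymotrypsin relative of the acute-phase response, lay between -0.94 in tumour 4 and -0.19 in the wild-type liver. Serping1 lay between -0.46 and -0.04, with tumours at a mean of -0.24 ± 0.15 (SD, n = 6). The antiplasmin gene Serpinf2 ranged from -0.32 to 0.23. In these genes the non-tumour livers shared the direction of the tumours, except Serpinf2, where tumours themselves differed in sign. AK144292, described on the array as the same gene as Serping1 and outside the rule by its name, has 1 probe at 84609066. It stood at -0.91, -1.07, -0.58, 0.93, -1.22 and 0.36 in tumours 1 to 6. The normal FEAT liver was at -0.10 and the wild-type liver at -0.50. In tumour 4, where Serping1 was lowest, AK144292 was highest. Serpini1, with 12 probes, ranged from -0.17 to 0.02 against its flank, and Serpine2, with 9, from -0.16 to 0.11. Serpinf1, with 3, ranged from -0.21 to 0.35. Serpinb5, the maspin gene, ranged from -0.18 to 0.20. Serpinb6a was among the widest, from -0.30 in tumour 5 to 0.40 in tumour 4, and 1 of its 4 probes ran from -1.11 to 0.86 in the same arrays.

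The 7 livers of the FEAT line, tumours and normal liver together, were compared with the wild-type liver to look for a difference carried by all of them. The lone wild-type array is assumed in the model to vary like the others, and it was also the youngest donor. With limma 0 of 35 serpin genes passed an adjusted p of 0.05, where 0.0182% of all genes did. At an unadjusted p under 0.05 there was 1 serpin gene, Serpinb1c, or 2.86% of the 35. Over all genes it was 1055, or 6.39%. Of the 35 genes, 17 were higher in the FEAT line and 18 lower, with a median difference of -0.01, against 0.0045 over all genes tested. Serpinb1c was higher in the FEAT line by 0.33, with an interval from 0.08 to 0.57 (limma, adjusted p = 0.721). Serpina3h, Serpina12, Serpina10 and Serpina3b followed, with differences of 0.31, 0.27, 0.23 and 0.20.

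Serpinb9d, a relative of Serpinb9, had the lowest difference, -0.41, with an interval from -0.85 to 0.04 (limma, adjusted p = 0.775). It stood at -0.22, -0.14, -0.33, -0.66, -0.12 and -0.61 in tumours 1 to 6, at -0.46 in the normal FEAT liver and 0.04 for the wild-type liver. The 7 FEAT-line values lay below the wild-type value, and both of its probes did so. Serpinb6b, Serpina11, Serpinb9e and Serpina3g followed, at -0.18, -0.15, -0.15 and -0.15. Across the 35 genes, the wild-type liver lay outside the range of the 7 others in 10, higher in 4 and lower in 6, against 31.3% of all genes.

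**Figure D4:**
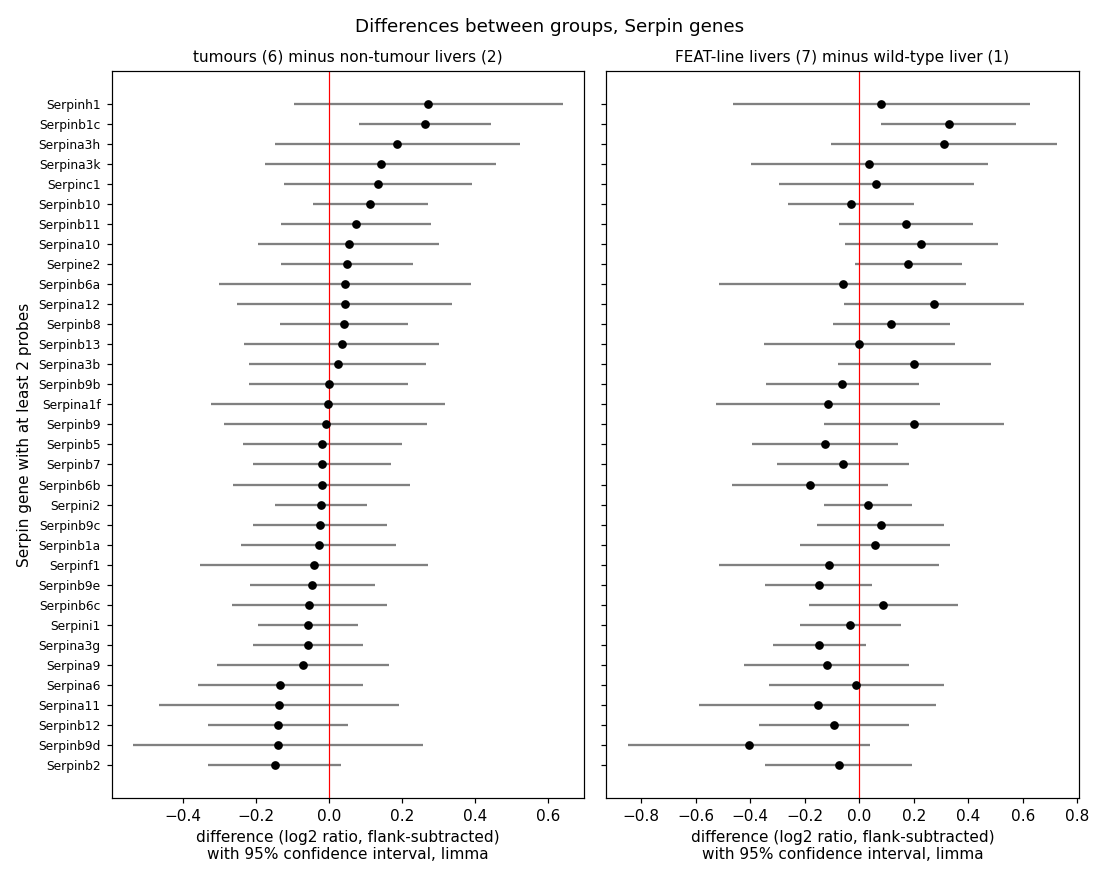
Points are differences in flank-subtracted log2 ratio (horizontal axes) for serpin genes with at least 2 probes (vertical axis), with 95% confidence intervals from limma; the left panel sets 6 tumours against 2 non-tumour livers and the right panel 7 FEAT-line livers against the wild-type liver. Serpinb1c is the gene whose interval lies above 0 in both panels, with an adjusted p of 1.00 on the left and 0.721 on the right.

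Both comparisons use the wild-type liver, so that their values for a gene are not independent. For Serpinb9d the difference between tumours and non-tumour livers rested on 1 array: it was -0.14 with both controls and 0.11 without the wild-type liver. Serpinh1 differed by 0.41 without the wild-type liver and 0.14 without the normal FEAT liver, and Serpina6 by -0.22 and -0.04.

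The 137 serpin probes with a value on all arrays were also tested singly between the FEAT line and the wild-type liver. With limma 0 of 137 passed, where 0.0098% of 214235 autosomal probes did. At an unadjusted p under 0.05 there were 5 higher and 1 lower serpin probes, or 4.38%. Over all probes it was 13884, or 6.48%. The Serpinb1c probe at 32261221 had the highest difference, 0.84, with an interval from 0.26 to 1.42 (limma, adjusted p = 0.681). The wild-type liver lay outside the range of the 7 others for 45 serpin probes, higher in 25 and lower in 20, against 35.7% of all probes.

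The deviations of the probes from their flank were partly shared between arrays, the wild-type one included. Over the 28 pairs of arrays, the correlation of the flank-subtracted values of the 137 serpin probes ran from 0.24 to 0.77, with a median of 0.52. Pairs with the wild-type array ran only from 0.24 to 0.52, and the lowest of all pairs was among them. Over all autosomal probes it ran from 0.27 to 0.77, with a median of 0.51. The arrays share the probes and the reference DNA. A total of 36 serpin probes had the same sign in all 8 arrays, 11 above and 25 below 0, against 28.8% of all probes. Among genes it was 10 of 35, 3 above and 7 below, against 24.6% of all genes. The mean over the 8 arrays was at or beyond 0.3 for 30 serpin probes, against 22.7% of all probes, and for 2 of 35 genes, against 3.47% of all genes.

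The lowest serpin probe lies in Serpinb6b, a member of the clade B cluster on chromosome 13. It stood at -0.71, -0.65, -0.92, -1.36, -0.67 and -1.27 in tumours 1 to 6, at -1.19 in the normal FEAT liver and -0.43 for the wild-type liver. The other 3 probes of the gene had means of 0.06, 0.13 and -0.21. In Serpina1f, an antitrypsin-related gene, 1 probe averaged -0.79 and the other 0.35. In Serpinb13 the printed probe averaged -0.66, and it was below 0 in all 8 arrays. Such neighbours within one gene stood further apart than the gene's tumours stood from its non-tumour livers.

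The printed probes of Serpinh1 and Serpinb1c, with means of 0.60 and 0.51, are also the 2 serpin probes with the lowest GC content, 26.7%. Over all 1559 autosomal probes with that GC content or less, the median of the mean over 8 arrays was 0.17, and 12.3% had a mean of 0.5 or more, against 3.05% of all probes. Over the serpin probes the correlation of GC content with the mean was -0.21, and over all probes -0.15. The part of base content in the values of these 2 genes was not tested.

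**Figure D5:**
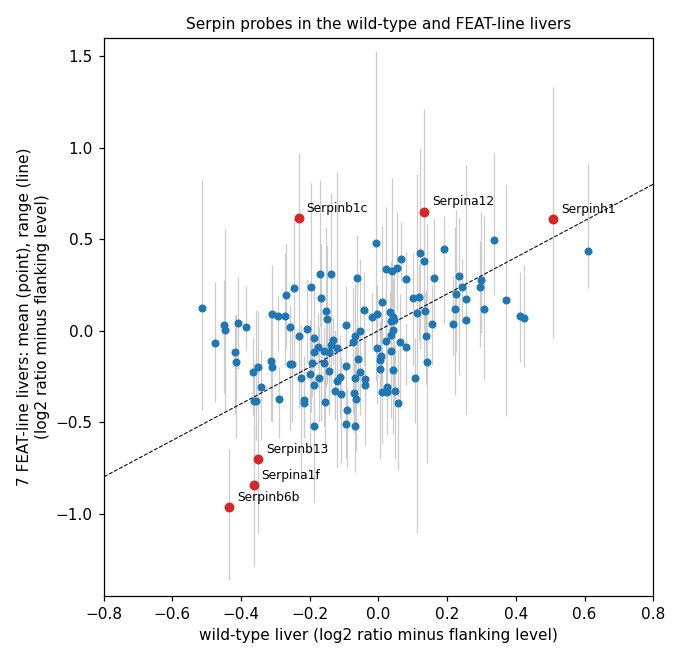
Points are serpin probes, with its flank-subtracted log2 ratio in the wild-type liver (horizontal axis) against the mean of the 7 FEAT-line livers (vertical axis); grey lines give their range and the dashed line is equality. The labelled Serpinb6b, Serpina1f and Serpinb13 probes are low in both, and the labelled Serpinb1c probe is below 0 in the wild-type liver and above 0 in the FEAT line.

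Some serpins are on the array under other names and fall outside the rule. Agt codes for angiotensinogen, a serpin without inhibitor activity that is the source of the angiotensins. It stood at -0.09 ± 0.21 (SD, n = 6) against its flank in tumours, 0.30 in the normal FEAT liver and -0.16 for the wild-type liver. BC021325 and BC057984, described on the array as the antitrypsin genes Serpina1c and Serpina1a, lie inside the Serpina cluster. They stood at -0.10 ± 0.09 and 0.10 ± 0.11 in tumours (SD, n = 6), at -0.06 and 0.27 in the normal FEAT liver and -0.29 and -0.14 for the wild-type liver. BC104333 is described as Serpinb1a and BC062169 as Serpinb6c. In tumours they stood at 0.07 ± 0.12 and -0.22 ± 0.18 (SD, n = 6), where Serpinb1a and Serpinb6c had means of 0.25 and 0.07. AK154905, described as Serpinh1 but placed on chromosome 8, stood at 0.15 ± 0.09 (SD, n = 6), where Serpinh1 had a mean of 0.51.

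The targets and partners of serpins were counted in the same way. Of 32 listed genes, proteases of clotting, fibrinolysis, complement and granules with their receptors and Agt, 28 were found and 22 had at least 2 probes. With limma 0 of 22 passed in tumours against non-tumour livers after flank subtraction, and 0 of 22 at an unadjusted p under 0.05, against 0% and 3.02% of all genes. Between the FEAT line and the wild-type liver 0 of 22 passed, and 1 was higher at an unadjusted p under 0.05, Masp2, a protease of the lectin pathway of complement, with a difference of 0.31 (limma, adjusted p = 0.722). Over all genes the shares were 0.0182% and 6.39%. The medians of the list were -0.02 and -0.02. By flank, 11 of the 28 genes lay on lost and 4 on gained chromosome in tumour 5, against 36.7% and 23.2% of genes with at least 2 probes. The 28 include genes with 1 probe. Plaur, the receptor of urokinase, and Hpn, a protease of hepatocytes, had flanks of -0.32 and -0.31 there, and Plg, the gene of plasminogen, had a flank of 0.19.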

How the data were processed

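Per the labels, liver DNA (Cy3) and reference liver DNA (Cy5) were hybridised to 2-colour oligonucleotide arrays. The deposited log2 ratios of all 8 arrays were used, matched to probes by spot number (235406 of 235406 rows). Scanner output was used for the wild-type array alone, where they equal the scanner's log10 ratio, which is red over green per the file headers, with sign turned and base changed, plus 0.0014 (r = -1). For the other 7 arrays the labels' dyes set the direction, and scale and centring before deposit are unknown. Tumours 1 to 6 had deposited autosomal medians of -0.06, -0.02, -0.04, 0.0019, 0.10 and 0.0065, the normal FEAT liver of -0.0093 and the wild-type liver of -0.02. Intensity signals of the deposited scanner file served for dim and flagged spots (0 of 138 serpin probes) and a normexp check (offset 50). Per the file headers, Agilent Feature Extraction 9.1.3.1 was used, and per the series' design text CGH analytics 3.4. The p-value columns and the ratio error of the deposited scanner file were not used.

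Spots of a probe were averaged (140 serpin spots gave 138 probes, of which 1, in Serpinb11, has no value on any array). Arrays were centred on the autosomal median, without loess or quantile normalisation. Clusters join members of a clade with gaps under 1 Mb. Gene means were tested with limma 3.58.1 (lmFit, eBayes, two-sided) under R 4.3.3, adjusted by Benjamini-Hochberg at 0.05 over all 16520 autosomal genes with at least 2 probes. The script was tested on simulated data. Named singly were plasma serpins and others from a fixed list, the 5 highest and 5 lowest genes of each flank-subtracted comparison and the 5 of widest range. Other probes and genes were chosen after their values were seen, as were the counts against both non-tumour livers and the GC comparison of the 2 probes. One member is counted in all totals but not reported singly here. The members and lists were chosen with earlier results of these data known. Nothing says that samples of a group came from separate litters or batches, so p-values measure the spread between these samples. Python 3.11.15, numpy 2.4.6, pandas 2.3.3 and matplotlib 3.10.9 were used.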

Additional observations from a re-analysis of the deposited data

Results flagged for a closer look

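In 40 sets of 6 tumour values (flanks of the loci, clusters and named genes), a single tumour lay far from the other five, by Dixon's criterion, in 3. Chance flags about 1 in 20 such sets, which is 2 of 40. All 3 are flanking levels of the chromosome in tumour 5, not flank-subtracted gene values. The flank of Serpine2 was 0.30 in tumour 5, where the median of the 6 tumours was 0.0064. The flank of Serpinh1 was -0.29 in tumour 5, with a median of 0.0014. The flank of the Serpini genes on chromosome 3 was 0.24 in tumour 5, with a median of 0.08.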

How the results depend on the processing

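No serpin gene or probe passed limma's adjusted p of 0.05 under any of the 14, 15, 14 and 10 alternatives run for the 4 comparisons, which varied probe minimum, summary, dim probes, flank width and gap, GC correction and left-out arrays where they applied. The smallest adjusted p of a member over these settings lay between 0.868 and 1.00 for tumours against non-tumour livers and between 0.520 and 0.907 for the FEAT line against wild-type. In all, 92 counts or cluster values and 275 differences of named genes kept their call, direction or size under an alternative. The difference of Serpinb9d between tumours and non-tumour livers turned to 0.11 without the wild-type liver. The number of members on displaced flanks depended on the threshold and the centring: at 0.2 it was 10 in tumour 4, all gained, against 1.71% of genes, and 15 in tumour 5, 14 gained and 1 lost, against 10.7% and 13.3%. With centring on the mode it was 2 in tumour 2, 27 in tumour 3 and 2 in the normal FEAT liver, all gained, against 2.69%, 32.5% and 0.908%. With 400 probes on each side it was 27 in tumour 4, 11 gained and 16 lost, against 14.6% and 15.4%, and with 100 probes 1 gained in tumour 6, against 0.581%. The flank of the Serpina cluster in tumour 4, at -0.10, lies at the threshold. No paired analysis was possible because the labels give the groups no shared replicate numbers and 2 groups hold 1 array each. Single probes with a noise SD of 0.22 to 0.49, few arrays and 1 to 4 probes in most genes limit what can be seen.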
